A study of Saccharomyces cerevisiae with 40 samples.

Results

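RPS14A and RPS14B are the 2 genes of budding yeast, Saccharomyces cerevisiae, that encode the small-subunit ribosomal protein Rps14. They were picked by the gene symbol that the array platform's annotation gives each probe set, and they are 2 of the 5449 genes measured. Each has 1 probe set, which names no other gene. RPS14A (YCR031C) lies on chromosome III and RPS14B (YJL191W) on chromosome X. The pair was chosen because earlier results from these arrays and the known control of RPS14B by Rps14 had drawn attention to it, so the values across chromosome III copy number are given as a description, without a test.

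Rps14 sits on the platform of the small ribosomal subunit and helps to fold and mature the ribosomal RNA there. Yeast makes most of its Rps14 from RPS14A. Rps14 that is not taken up into ribosomes binds a structured stretch of the RPS14B transcript and limits its expression, so that RPS14B is known as the copy that gives way when RPS14A is active and comes up when RPS14A is lost.

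Messenger RNA was measured on 40 one-colour Affymetrix arrays in 16 groups, each from RNA of a culture grown for 18 generations without stress before extraction. The diploid arrays comprised 4 of lines kept at 39 °C from the start for 450 generations (abrupt heat), 1 of an unevolved clone trisomic for chromosome III and 1 of an unevolved monosomic clone. There were also 4 of lines brought to 39 °C in steps over 450 generations (gradual heat), 4 of a heat-evolved line called H2 after 600 more generations at 30 °C, and 2 of lines kept at 30 °C for 450 generations. On minimal medium there were 2 arrays of H2 after 1000 more generations at 39 °C and 2 of the trisomic clone after 1000 generations at 39 °C, beside 1 of the diploid ancestor. The other diploid ancestor arrays numbered 2. The haploid side held 8 spores of a strain called evo39, 4 arrays of a line after 750 generations at pH 8.6, 1 after 150 generations, 1 disomic and 1 euploid spore of that line, and 2 of the haploid ancestor. The labels give no genotype beyond these terms and do not say how evo39 was made. They give the chromosome III number only for the trisomic and monosomic clones, do not name the disomic chromosome of the pH spore, and do not say which abrupt heat culture gave H2 or whether replicates were separate cultures. The trisomic and monosomic arrays are of 1 clone each. Where an evolved line was sampled as a population, fewer cells of a type and less RNA per cell cannot be told apart.

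The arrays had been normalized by the authors in separate runs. Arrays of a run share many values to the last digit, and 9 such runs were found this way. Levels differ between runs: RPS14B stood at 13.07 on one haploid ancestor array and at 12.28 on the other (log2). Each array is therefore set against the ancestor array of its own run, which 27 arrays have, and a change is the difference of log2 levels. The spread of replicates around their group means, pooled over 18 arrays in 6 groups, was 0.017 for RPS14A and 0.070 for RPS14B (SD, log2). Levels of different probe sets are not set against each other, since each probe set has its own response.

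Markers of mating type and of haploid cells differed between arrays in ways that the labels do not describe. The labels give no mating type, and for the evo39 spores no ploidy. Diploid yeast with both mating types keeps the 7 haploid marker genes low. Their median stood between 0.51 and 1.48 above background (log2) on the abrupt heat, trisomic and diploid ancestor arrays. The monosomic clone was at 0.95. Whether all cells of its culture were monosomic was not tested. Among the evo39 spores, numbers 1, 5 and 7 had medians of 0.70, 1.14 and 0.86, against 6.22 on the haploid ancestor array of their run. The other spores, 2, 3, 4, 6 and 8, lay between 5.84 and 6.30. Mating type differed too: against that ancestor, which had high a-cell markers, the median a-cell marker was at −5.55 to −5.09 in all spores but spore 3, where it was at −0.47. The median of the alpha-cell markers was at 2.73 to 4.94 in spores 2, 4, 6 and 8 and at −0.064 to 0.49 in spores 1, 3, 5 and 7. In the pH line, the median of 7 a-cell markers was 6.37, 6.43, 5.74 and 5.20 after 750 generations, against 1.01 on the haploid ancestor array. The 4 alpha-cell markers had medians of 1.54 to 1.70 in that line and 6.60 on the same ancestor array. The part of these differences in the RPS14 values was not tested.

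RPS14B ran opposite to chromosome III in the unevolved clones, while RPS14A followed the chromosome only weakly. RPS14B stood at 13.45 in the monosomic clone, 12.61 in the diploid ancestor and 11.87 in the trisomic clone (log2 levels, 1 array each). By their labels these have 1, 2 and 3 copies of the chromosome that carries the other gene. RPS14A stood at 13.85, 13.93 and 14.03 in the same order. The levels of both genes were thus ordered by the labelled copy number, in opposite directions, and with a much wider range in RPS14B.

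Against the ancestor, the trisomic clone had RPS14B at −0.74, or 1.68 times lower, and RPS14A at 0.11. The other chromosome III genes had a median change of 0.49 there, a fold of 1.41. In the monosomic clone RPS14B was at 0.83, a fold of 1.78, and RPS14A at −0.07, with a chromosome III median of −0.51, a fold of 0.700. That is a smaller fall than a loss of 1 of 2 copies would give at full array response. Whether every cell of that culture had 1 copy was not tested. With the mean of both diploid ancestor arrays as the reference, 1 of which comes from another run, RPS14A was at 0.38 in the trisomic clone and changed sign to 0.20 in the monosomic clone, while RPS14B was at −0.59 and 0.99. The direct difference of trisomic and monosomic clone, which lie in the same run, was −1.58 for RPS14B, 0.18 for RPS14A and 1.03 for the chromosome III median.

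Few genes of the genome moved as far as RPS14B in these clones. It was the 4th lowest of 5366 genes in the trisomic clone and the 17th from the top in the monosomic clone. No other cytosolic ribosomal protein gene came near it. In signal RPS14B ranked 120th from the top of 127 such genes on the ancestor array of that run. Chromosome III genes of high level changed less, as given below. The part of the level in this contrast was not tested. The remaining 125 ranged from −0.35 (RPL22B, a large-subunit gene) to 0.044 (RPS27A) in the trisomic clone and from −0.081 (RPL26A) to 0.11 (RPS10B) in the monosomic clone.

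**Figure D1:**
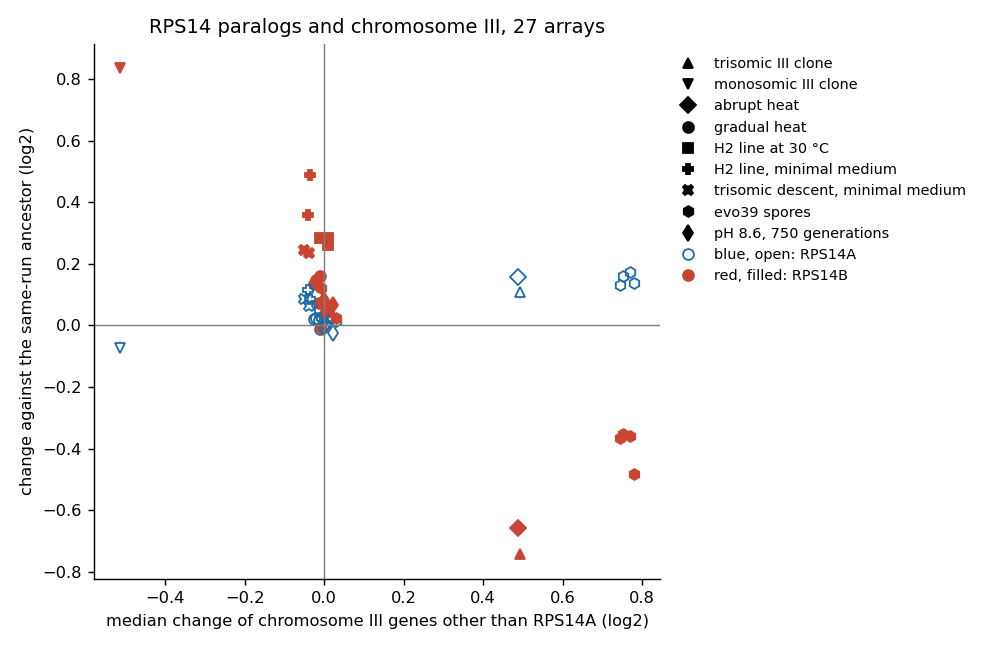
Change of RPS14A (open, blue) and RPS14B (filled, red) against the ancestor array of the same run (log2, vertical axis) by the median change of the other chromosome III genes on the same array (log2, horizontal axis), for 27 arrays with marker shapes for the groups. RPS14B lies at 0.83 where the chromosome is at −0.51 and between −0.74 and −0.35 where it is at 0.49 to 0.78, while RPS14A stays between −0.07 and 0.17 throughout. With the mean of both ancestor arrays as the reference, RPS14A of the monosomic clone moves to 0.20 and RPS14B of spores 1, 5 and 7 to 0.032, 0.026 and 0.040.

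Abrupt heat lines carried a chromosome III signal like that of the trisomic clone. On replicate 2, the replicate that shares a run with an ancestor, the chromosome III median was 0.49, RPS14B was at −0.66 or 1.58 times lower, and RPS14A at 0.16. RPS14B ranked 12th lowest of all genes, and the other ribosomal protein genes ranged from −0.17 (RPL22B) to 0.14 (RPS19A). Replicate 4 shares a run with replicate 1 of the lines kept at 30 °C. Against that array RPS14B was at −1.18, RPS14A at 0.062 and chromosome III at 0.50. That reference is not an ancestor, and its own RPS14B lay above both ancestor arrays on the relative scale given below. The value of −1.18 is therefore not comparable with −0.66. Replicates 1 and 3 have no partner array, so the level relative to the array's median ribosomal protein gene serves in its place.

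On that relative scale, RPS14B stood at −1.76, −1.78, −1.68 and −1.86 in the abrupt heat lines, against −1.09 and −0.86 on the diploid ancestor arrays. The trisomic clone was at −1.80 and the monosomic clone at −0.28. All 4 abrupt heat arrays lay near the trisomic clone and below both ancestor arrays, with no overlap, which held for 5.2% of all genes on this scale in either direction. RPS14A stood between 0.26 and 0.35 in the abrupt heat lines and at 0.22 on each of the ancestor arrays.

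In the lines kept at 30 °C, RPS14B was at −0.70 and −0.57 on this scale, above both ancestor arrays. Neither shares a run with an ancestor. Their chromosome III genes had medians of −0.078 and −0.082 relative to all genes of the array, against −0.091 and −0.26 in the ancestor.

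**Figure D2:**
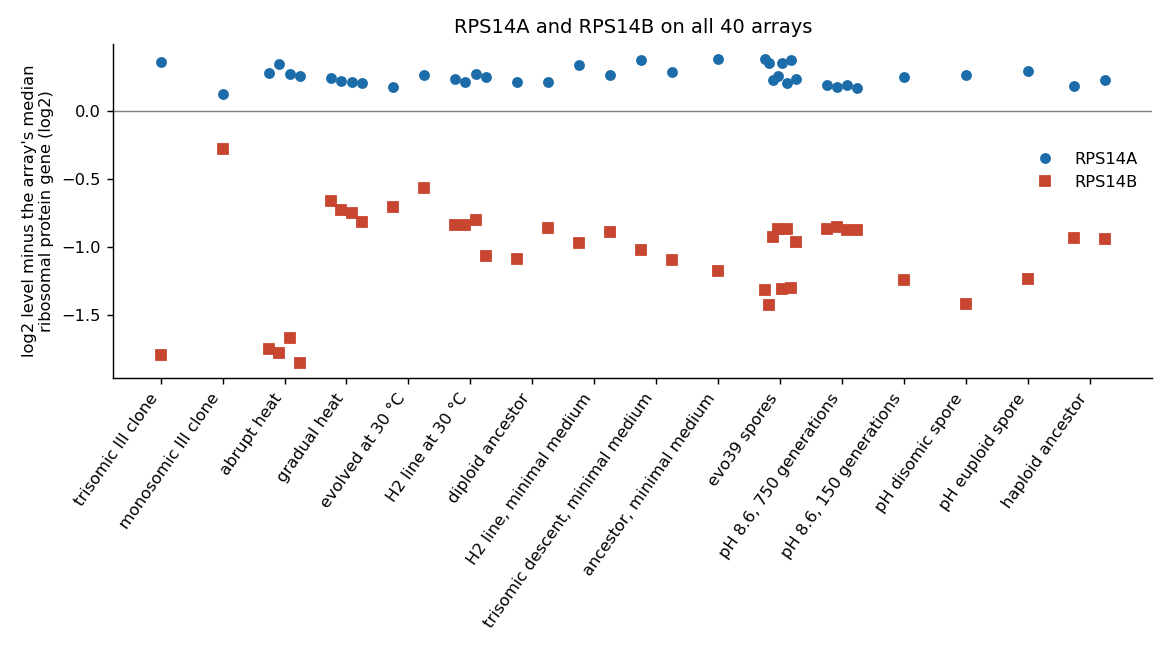
Level of RPS14A (blue circles) and RPS14B (red squares) minus the median of the other ribosomal protein genes of the same array (log2), for all 40 arrays by group. The abrupt heat arrays and the trisomic clone have RPS14B between −1.86 and −1.68, the monosomic clone has it at −0.28, and the evo39 spores fall apart into 4 at −1.43 to −1.30 and 4 at −0.97 to −0.86. The vertical distance between the 2 genes is not a difference in abundance, because each probe set has its own response.

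The H2 line after 600 generations at 30 °C did not have the raised chromosome III signal of the abrupt heat lines, and its RPS14B lay near or above the ancestor. Chromosome III medians against the ancestor were −0.010, 0.010, 0.010 and 0.012. RPS14B was at 0.28, 0.28, 0.26 and 0.042, and RPS14A at 0.046, 0.025, 0.028 and 0.044. The 4th array stood apart from the others in RPS14B, and its chromosome III median did not.

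Set against abrupt heat replicate 2, of the same run, RPS14B was at 0.94, 0.94, 0.92 and 0.70 in the H2 line, with a mean of 0.88 ± 0.12 (SD, n = 4). RPS14A was at −0.11, −0.13, −0.13 and −0.11, with a mean of −0.12 ± 0.011, and chromosome III medians were −0.48 to −0.45. All of these differences subtract the array that was also set against the ancestor above, so the 2 comparisons are not independent. With the replicate number as a block over all 4 abrupt heat arrays and the run ignored, the values were 0.75 for RPS14B and −0.18 for RPS14A. That block with the ribosomal protein medians subtracted gave 0.88 and −0.047.

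Gradual heat lines had no chromosome III signal, with medians of −0.026 to −0.011. RPS14A changes were −0.012, 0.025, 0.020 and 0.017, and RPS14B changes 0.16, 0.15, 0.13 and 0.072, a mean of 0.13 ± 0.039 (SD, n = 4). The RPS14B mean was −0.028 when both diploid ancestor arrays served as the reference. Between 1 and 7 other ribosomal protein genes moved further than RPS14B on each of these arrays, such as RPL27B and RPS19A on replicate 2.

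On minimal medium neither evolved line had a raised chromosome III, and RPS14B was higher than in the ancestor on the same medium. The H2 line had RPS14B at 0.36 and 0.49 and RPS14A at 0.11 and 0.085, with chromosome III medians of −0.041 and −0.035. The descendants of the trisomic clone had RPS14B at 0.25 and 0.24 and RPS14A at 0.085 and 0.064, with chromosome III medians of −0.051 and −0.039. The ribosomal protein genes as a group were higher there too, with a median of 0.12 and 0.18 in the H2 line and 0.079 and 0.11 in the trisomic descendants. With that median subtracted, RPS14B kept a mean of 0.24 in the H2 line and 0.12 in the trisomic descendants, and RPS14A turned to −0.080 and −0.048.

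The evo39 spores fell into 4 with raised chromosome III genes and 4 without. Spores 1, 2, 5 and 7 had chromosome III medians of 0.77, 0.78, 0.74 and 0.75 against the haploid ancestor array of their run. Their RPS14B changes were −0.36, −0.48, −0.37 and −0.35, or 1.28 to 1.40 times lower, and their RPS14A changes were 0.17, 0.14, 0.13 and 0.16. Spores 3, 4, 6 and 8 had chromosome III medians of 0.029, 0.0049, −0.0082 and −0.0086. RPS14B changes there were 0.023, 0.042, 0.12 and −0.010, and RPS14A changes 0.014, 0.0031, 0.026 and 0.028. Neither gene's values overlapped between the 4 spores with a raised chromosome III and the 4 without, which held for 14% of all 5366 genes.

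Among the raised spores, spore 2 had the lowest RPS14B and 140 of 145 chromosome III genes above RPS14A in change. It alone of these 4 had raised haploid markers, with a median of 6.12. Spores 1, 5 and 7, whose haploid markers were as low as in diploids, had RPS14B values of −0.37 to −0.35. RPS14B ranked 489th, 143rd, 364th and 710th lowest of 5366 genes in spores 1, 2, 5 and 7, so many more genes moved as far as in the diploid clones. Against the mean of both haploid ancestor arrays, which belong to different runs, RPS14B was at 0.032, −0.088, 0.026 and 0.040 in these spores. It was at 0.42, 0.43, 0.51 and 0.38 in spores 3, 4, 6 and 8 on that reference, above all 4 raised spores.

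RPS14A changed less than most of the genes it shares a chromosome with. In the trisomic clone, 137 of 145 other chromosome III genes had a larger change than RPS14A. In abrupt heat replicate 2 there were 136 of 145. In spores 1, 2, 5 and 7 the counts were 133, 140, 135 and 135 of 145. The monosomic clone had 139 of 145 genes below the change of RPS14A.

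Genes next to RPS14A along the chromosome moved with the chromosome. On one side lie FEN2, RIM1 and SYP1, with changes of 0.42, 0.31 and 0.62 in the trisomic clone and −0.58, −0.45 and −0.47 in the monosomic clone. On the other side lie BPH1, SNT1 and ELO2, with 0.58, 0.68 and 0.26 in the trisomic clone and −0.98, −0.58 and −0.49 in the monosomic clone. All of these 6 changes were larger in size than that of RPS14A in both clones. FEN2 encodes a plasma membrane carrier of pantothenate, RIM1 a single-stranded DNA-binding protein of mitochondria, and ELO2 an enzyme of fatty acid elongation.

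The change of a chromosome III gene also went with its level. RPS14A lies near the top of the range, with levels of 13.37 to 14.48 on the 40 arrays where the highest value of any probe set was 15.09. In the trisomic clone, 55 chromosome III genes with ancestor levels of 8 to 10 had a median change of 0.57. The median was 0.47 for 45 genes at levels of 10 to 12 and 0.31 for 9 genes at 12 to 13. Apart from RPS14A, the genes above 13 were PDI1, a chaperone of disulfide bond formation, at 0.29, and PGK1, a glycolytic enzyme, at 0.052. The 7 genes above 13 in the spores had medians of 0.41, 0.32, 0.31 and 0.41 in spores 1, 2, 5 and 7. The part of the level in the small change of RPS14A was not tested.

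**Figure D3:**
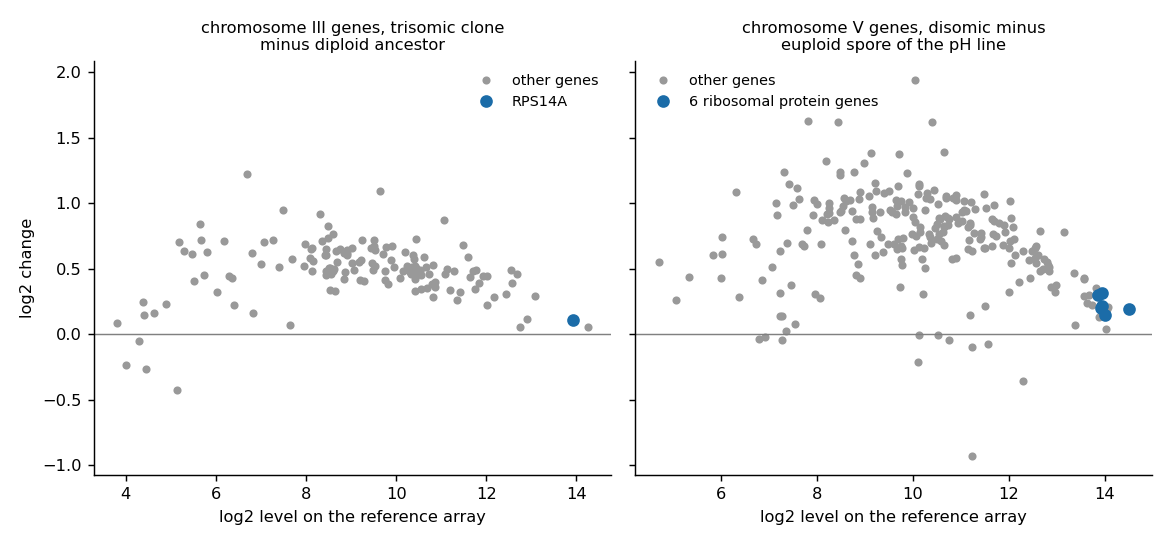
Log2 change by log2 level on the reference array for chromosome III genes in the trisomic clone against the diploid ancestor (left, RPS14A in blue) and for chromosome V genes in the disomic against the euploid spore of the pH line (right, 6 ribosomal protein genes in blue). Each point is a gene on 1 array. On the right the median change is 0.93 for genes at levels of 8 to 10 and 0.23 for 22 genes above 13, and RPS14A on the left lies at 0.11.

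Within the 2 clones, the 4 spores and abrupt heat replicate 2, the RPS14 pair parted further than any other ribosomal protein pair. RPS14B had a lower signal than most other ribosomal protein genes, and the part of the level in this contrast was not tested either. The change of the A member minus that of the B member was 0.85 for RPS14 in the trisomic clone, while 49 other A and B pairs ranged from −0.10 (RPL12) to 0.28 (RPS22). It was −0.91 in the monosomic clone, against −0.18 (RPS10) to 0.056 (RPP2) for the others. Abrupt heat replicate 2 had 0.82, with the others from −0.11 (RPL26) to 0.15 (RPL22). Spores 1, 2, 5 and 7 had 0.53, 0.62, 0.50 and 0.51, and in none of them was another pair larger in size. In spores 3, 4, 6 and 8 the RPS14 difference was −0.0085, −0.039, −0.096 and 0.038, and between 7 and 42 of the 49 other pairs were larger in size.

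**Figure D4:**
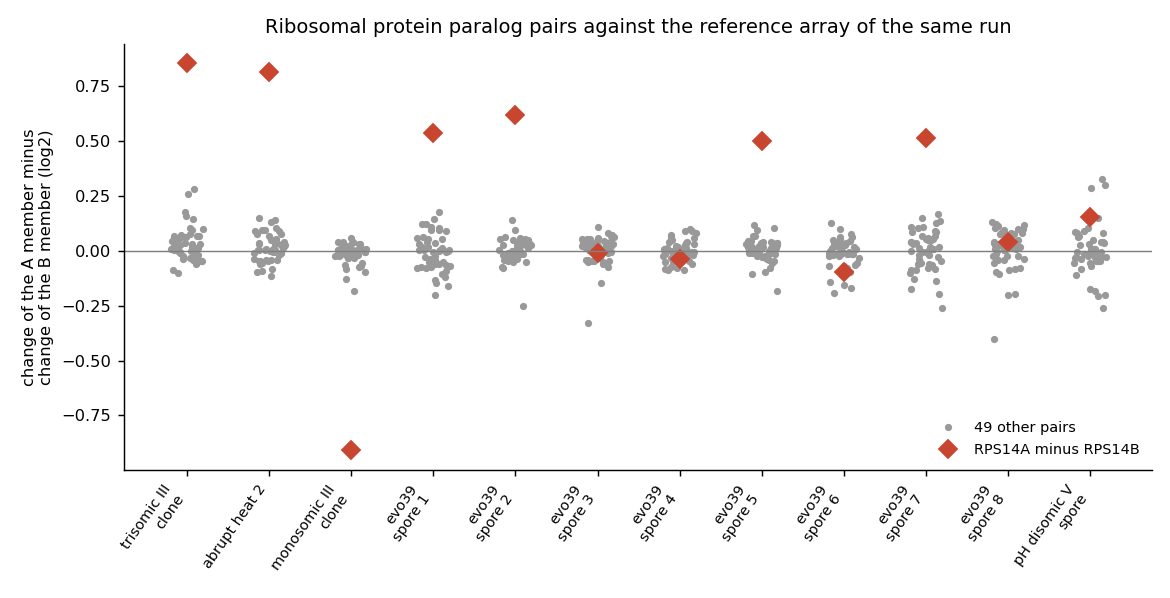
Change of the A member minus change of the B member (log2) for RPS14 (red diamonds) and 49 other ribosomal protein pairs (grey), on 12 arrays, each against the reference array of its run. RPS14 lies outside the other pairs in the trisomic and monosomic clones, abrupt heat replicate 2 and spores 1, 2, 5 and 7, and inside them in spores 3, 4, 6 and 8 and in the disomic spore of the pH line.

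A raised chromosome V gave 6 other pairs with 1 member on a raised chromosome. The disomic spore of the pH line had a chromosome V median of 0.75 against the euploid spore. The members on chromosome V were RPL12A at 0.30, RPL23B at 0.20, RPL34A at 0.32, RPS24A at 0.15, RPS26B at 0.21 and RPS8B at 0.20. Their partners elsewhere were at −0.0020 (RPL12B), −0.0027 (RPL23A), −0.0087 (RPL34B), 0.0010 (RPS24B), 0.013 (RPS26A) and 0.023 (RPS8A). The members on the raised chromosome were at levels of 13.86 to 14.51 in the euploid spore, near that of RPS14A. Their partners were at levels of 13.63 to 14.41, where RPS14B stood at 12.82, and their changes ranged from −0.0087 to 0.023. The part of the level in the small changes of the partners was not tested. RPS14A in the disomic spore was at 0.0013 and RPS14B at −0.15, with chromosome III at −0.035. The line after 150 generations at pH 8.6, also with chromosome V at 0.75, had RPS14A at −0.031 and RPS14B at 0.011 against the same euploid spore. The 6 members on chromosome V were at 0.14 to 0.24 on that array, and their partners at −0.074 (RPL34B) to 0.026 (RPS8A), RPL23A at −0.028 among them. Arrays 3 and 4 of the line after 750 generations, with chromosome V at 0.27 and 0.34 against the haploid ancestor, had the 6 members at 0.025 to 0.17 and the partners at −0.019 to 0.033.

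RPS14A and RPS14B were tested only in the line after 750 generations at pH 8.6, a contrast outside the chromosome III comparison. RPS14A stood at 13.40, 13.38, 13.43 and 13.39 in the line and at 13.40 on the ancestor array. RPS14B was at 12.34, 12.35, 12.36 and 12.34 in the line and at 12.28 on the ancestor array. All 4 arrays had RPS14B slightly above the ancestor, and RPS14A lay on both sides of it. The RPS14A change was 0.0014 ± 0.064 and the RPS14B change 0.067 ± 0.20 (SE), with an adjusted p = 1 for both in limma's moderated test with Benjamini-Hochberg adjustment over 5366 genes. Neither of the 2 was called, beside 0.149% of all genes. The unadjusted p was 0.983 for RPS14A and 0.747 for RPS14B. The RPS14B error comes from a spread shared with the evo39 spores. With only the 2 compared groups in the fit its SE was 0.017 and its adjusted p = 0.196 (limma). The sign of the RPS14A value changed under 3 of the other settings and when 1 array of the line was left out, and no direction is read from it. The RPS14B value turned to −0.33 when the run was left out of the fit. The ancestor array and the line differ in mating type markers, as given above.

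The other 125 ribosomal protein genes formed the surroundings of the pair, and the same limma fit counted them at an adjusted p below 0.05. With run as a fixed term, the abrupt heat comparisons of that fit, with the ancestor and with H2, rest on replicate 2 alone. The other abrupt heat arrays share no run with either. The lone arrays of a group were assumed to vary like the other groups in that fit. In the trisomic clone none of them was called, beside 0.447% of all genes, while 6 were lower and 0 higher at an unadjusted p below 0.05. Their median was −0.039, against 0.0088 for all genes. In the monosomic clone none was called, with 0.839% of all genes called and none below 0.05 unadjusted, and in abrupt heat none against 0.298%, with 1 lower unadjusted. Gradual heat and the H2 line at 30 °C against the ancestor also had none, beside 0.0932% and 0.0745% of all genes, and 2 higher unadjusted in each. The H2 line against abrupt heat had none beside 1.77%, with 4 higher and 1 lower unadjusted.

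More of the group was called elsewhere. On minimal medium 77 of the 125 rose and 4 fell in the H2 line, where 57.8% of all genes were called, 30.5% higher and 27.3% lower. In the trisomic descendants 38 rose and 0 fell, where 33.6% of all genes were called, 18.6% higher and 15% lower. In the disomic against the euploid pH spore 4 rose, RPL12A, RPL23B, RPL34A and RPS8B, beside 6.35% of all genes called and 4.21% called higher, and all 4 lie on chromosome V. After 750 generations at pH 8.6 none was called, beside 0.149% of all genes, with 1 higher and 16 lower unadjusted. The 8 evo39 spores against their ancestor had none beside 0% of all genes, with 5 higher and 1 lower unadjusted. These spores entered the fit as replicates, though they differ in chromosome III signal and mating type markers. Even the a-cell markers, at medians of −4.72 in the spores and 4.31 in the pH line, had 0 calls. The counts of 0 in these 2 comparisons are therefore not read as a result on ribosomal protein genes.

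Genes that work around Rps14 were counted in the same fit, where 0.447% of all genes were called in the trisomic and 0.839% in the monosomic clone. The clones and the abrupt heat comparison rest on 1 array each. Counts of 0 there, in this list and the next ones, are therefore not read as an absence of change. Of 23 factors that assemble the small subunit, 0 were called in the trisomic clone, with 1 higher unadjusted. The furthest was RRP7, itself on chromosome III, at 0.51 in the trisomic and −0.49 in the monosomic clone (limma adjusted p = 0.0612 and 0.0501). KRR1, a factor of early assembly that also lies on chromosome III, was at 0.34 in the trisomic clone (adjusted p = 0.961, limma). FAP7, an ATPase that binds Rps14 before it enters the subunit, was the lowest of the list at −0.15. The fit compared the H2 line with abrupt heat through replicate 2 of abrupt heat alone, with 1.77% of all genes called. In the H2 line against abrupt heat RRP7 fell by 0.49 ± 0.084 (SE, limma adjusted p = 0.00998), the only call in that list.

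The 13 genes whose product limits its own RNA, as Rps14 does for RPS14B, had 0 calls in the trisomic clone, with 2 lower unadjusted. These were RPS28B, whose protein promotes decay of its own messenger, at −0.18 (limma adjusted p = 0.323) and RPL22B, whose protein holds back splicing of its own transcript, at −0.35 (adjusted p = 0.628, limma). The monosomic clone had 0 calls and none unadjusted, and abrupt heat 0 calls with 1 lower unadjusted. The 21 genes of splicing and decay of unspliced RNA had 0 calls in these 3 comparisons and none unadjusted. The 9 regulators of ribosomal protein genes had 0 calls there too, with 1 higher unadjusted in the trisomic clone and 1 in abrupt heat. The largest sizes were CRF1, a corepressor, at 0.44 in the trisomic clone, and TOR2, a kinase of growth control, at −0.18 in the monosomic clone.

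On minimal medium these lists were called in number beside 57.8% of all genes in the H2 line (30.5% higher, 27.3% lower) and 33.6% in the trisomic descendants (18.6% higher, 15% lower). Among the assembly factors 14 rose and 1 fell in the H2 line, and 9 rose and 2 fell in the trisomic descendants. The splicing and decay list had 1 rise and 10 falls, and 2 rises and 5 falls. Of the regulators 6 and 4 fell and 0 rose. The list of genes that limit their own RNA had 6 rises and 2 falls in the H2 line, RPL22B at −0.37 among the falls (limma adjusted p = 0.0138), and 2 rises and 0 falls in the trisomic descendants. In the disomic against the euploid pH spore, where 6.35% of all genes were called, PRP22 and BRR2, helicases of the spliceosome, were the calls among the 4 lists. Both genes lie on chromosome V, and their changes were 1.13 and 0.89.

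Genes that moved most like the pair were ranked by Pearson's r of the changes over the 27 arrays with an ancestor in their run, which share ancestor arrays, so that r is a description. For RPS14A the 5 highest on chromosome III were RIM1 at 0.92, MSH3 at 0.92, VAC17 at 0.91, SAT4 at 0.91 and BUD3 at 0.90. Off the chromosome they were YDR042C at 0.87, YFL012W at 0.79, CCE1 at 0.77, FIG1 at 0.76 and YIL089W at 0.75. The lowest were CYC3 at −0.81, INN1 at −0.80, RAM2 at −0.79, YDL129W at −0.78 and ADH3 at −0.75.

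For RPS14B, the lowest r on chromosome III was that of ADP1 at −0.90, followed by EMC1 at −0.89, CDC39 at −0.89, CWH43 at −0.88 and BPH1 at −0.88. The highest there was VBA3 at 0.37. Off the chromosome the highest were MRP20 at 0.81 and LCB3 at 0.77, followed by DJP1 at 0.75, MRPL24 at 0.74 and TIM23 at 0.74. The lowest were RKM5 at −0.85 and REC104 at −0.85, followed by PAU7, DAL1 and BNA4 at −0.76 each. MRP20 and MRPL24 encode proteins of the mitochondrial ribosome, and TIM23 a channel of mitochondrial protein import.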

How the data were processed

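RNA of 40 yeast cultures was hybridised to one-colour arrays. The deposited log2 values were made by the authors with RMA (background correction, quantile normalization, probe set summary), per the submitters' processing notes. No version or genome build is stated (not given in the sources used here). In the platform annotation 7244 probe sets carry 1 symbol, those of another yeast species included. Probe sets were joined to RefSeq genes by the annotation's gene identifier, which gave 5449 genes. For the 47 genes with several probe sets these were averaged. Chromosomes and gene order came from RefSeq annotation. Probe sequences were not used here, so the response of either RPS14 probe set to the other gene's RNA was not tested.

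Normalization runs were inferred from arrays sharing at least 0.1% of values to the last digit (at most 0.0183% between runs). Background was the 95th percentile of 1746 probe sets of another yeast species, 4.23 to 5.36 by array. The 5366 genes above it on at least 2 arrays entered limma 3.58.1 (R 4.3.3), with run as a fixed term, a trended prior and Benjamini-Hochberg adjustment at 0.05, in one fit of 23 diploid arrays and one of 17 haploid and spore arrays. The fit was tested on simulated data. The number of arrays limits precision, and p-values measure the spread between arrays, which may be technical.

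The members and the lists (40S assembly factors, genes limiting their own RNA, splicing and decay, regulators, mating type and haploid markers) were chosen with earlier results of these data known. Named were the pair, ribosomal protein pairs with a member on chromosome III or V, list members called (or the furthest 2), the 3 neighbours on each side of RPS14A, the 5 genes at each end of the correlation with each member, on and off chromosome III, and ribosomal protein genes moving further than RPS14B in an array with raised chromosome III. Ends of ranges are also named, after their values were seen. Alternatives were array medians of all or of ribosomal protein genes, repeated quantile normalization, the brightest probe set, both ancestor arrays, no or random run, no filter, other fits and leaving out each replicate.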

Additional observations from a re-analysis of the deposited data

Results flagged for a closer look

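In the H2 line after 600 generations at 30 °C, array 4 lay apart from the other 3 in RPS14B. Its change against the ancestor was 0.0421, while the others were at 0.26 to 0.28, and its level relative to the array's median ribosomal protein gene was −1.0642, against −0.84 to −0.80. The gap to the nearest of the others was 0.906 and 0.872 of the group's range, above Dixon's critical value of 0.829 for 4 arrays. RPS14A (0.044) and the chromosome III median (0.012) of that array lay with the others. In all, 18 combinations of group, gene and quantity were examined, and chance flags about 1 in 20 such combinations, so that a flag among them is not rare.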

How the results depend on the processing

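Precision rests on few arrays: each clone, each spore and, within a run, the ancestor has 1 array, and the ancestor's own spread within a run is unknown. Ancestor levels differ between runs, so ignoring the run moves values. With the mean of both ancestor arrays, RPS14A was at 0.3815 in the trisomic clone, 0.1993 (sign turned) in the monosomic clone and 0.4302 in abrupt heat replicate 2, and RPS14B at −0.5876, 0.9911 and −0.5018. RPS14B turned to −0.0281 in gradual heat and to 0.0324, 0.0256 and 0.0399 in evo39 spores 1, 5 and 7. With array medians of all genes subtracted RPS14A was at 0.0798 in the trisomic clone. With medians of ribosomal protein genes subtracted RPS14A was at 0.1465 in the trisomic clone, −0.0952 in the monosomic clone and 0.128 in abrupt heat, and turned to −0.0798 in H2 and −0.0482 in the trisomic descendants on minimal medium and to −0.0215 in spore 6. Repeated quantile normalization gave RPS14B 0.7273 in the monosomic clone and RPS14A 0.1159 in abrupt heat and −0.0036 in spore 6. The probe set with the highest mean changed nothing, as each gene has 1. Leaving out 1 replicate in turn moved RPS14A and RPS14B of the gradual heat, H2 and minimal medium groups by less than the pooled replicate spread.

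Replicate numbers did not pair abrupt heat with H2 arrays: deviations of arrays with the same number correlated at −0.238 to −0.047. With the replicate block and the run ignored, RPS14A was at −0.183 and RPS14B at 0.746 in H2 against abrupt heat. The block with ribosomal protein medians subtracted, chosen after seeing the data, gave RPS14A −0.0474. With the replicate block and the run ignored, the count of other ribosomal protein genes called stayed at 0. No count was made for the block with medians subtracted.

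At pH 8.6, the RPS14A change was −0.4167 without a run term, −0.0067 with run as a random block, −0.002 after repeated quantile normalization and −0.0089 to 0.0097 with 1 array left out. RPS14B was at −0.3263 without a run term. Counts of other ribosomal protein genes called without a run term were 0 in both minimal medium comparisons, against 81 and 38, and 0 in the disomic pH spore, against 4. They were 49 after 750 generations at pH 8.6 and 119 in the evo39 spores, against 0 in each. With run as a random block they were 18 in the trisomic descendants and 2 in the disomic spore. Leaving out 1 array gave 24 to 48 in the trisomic descendants (24 without replicate 2) and 0 to 1 after 750 generations at pH 8.6 (1 without replicate 1).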

Other observations

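RPL22B had the lowest change among the other 125 ribosomal protein genes in the trisomic clone (−0.35), in abrupt heat replicate 2 (−0.17) and in abrupt heat replicate 4 against the line kept at 30 °C of its run (−0.31). It was highest among them in H2 arrays 1, 2 and 3 against abrupt heat replicate 2, at 0.43, 0.32 and 0.23. The limma fit, too, set the H2 line against abrupt heat replicate 2 alone. RPL22B does not lie on chromosome III. It was at 0.0011 in the monosomic clone, and limma's adjusted p was 0.628 in the trisomic clone and 0.309 in the H2 line against abrupt heat, so neither passed. Among the same 125 genes, without the RPS14 pair, the lowest in the evo39 spores was another one. It was RPS9A in 6 of 8, whose product is known to limit the RNA of its own gene pair.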
